A study of Rattus norvegicus with 11 samples.

Results

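Of the 687 rat microRNA names that the arrays of this series carry, 245 end in an asterisk, and these 245 names, chosen by the asterisk alone, are described here beside the 442 names without one. A microRNA hairpin is cut by Drosha and then by Dicer into a short duplex of paired strands. One strand, the guide, is kept by an Argonaute protein and directs it to messenger RNAs through its seed, the bases near its 5′ end. The other strand, the passenger, is mostly discarded. In the older naming the less abundant strand took the asterisk, and some passenger strands are known to be loaded and used as well. In what follows the same name without the asterisk is called the guide, as the naming has it, and it was on the arrays for 210 of the 245 star names.

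The RNA came from pancreatic islets of female Sprague Dawley rats whose fathers differed in diet. Fathers of the HFD group ate pellets with 43% as fat and fathers of the Control group ate standard chow with 9% as fat. All fathers were mated at 15 weeks of age with females on chow, daughters of both groups were weaned at 3 weeks, and islets were taken at 13 weeks. The labels give every array its own number, and do not say whether an RNA came from 1 rat or a pool, or which daughters shared a father, so p-values measure the spread between these 11 samples. There were 6 Control and 5 HFD arrays. The first array design held Control 602, 613, 615 and 639 and HFD 603, 607, 644 and 653, and the second held Control 635 and 652 and HFD 640. Design, slide and scan coincided, so they entered the fit as 1 block.

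The first design carried 58 star names and the second 240, with 53 on both. Of those 53, 52 were read by the same probes on both designs. The 5 star names found on the first design only (miR-129*, miR-138*, miR-181a*, miR-218* and miR-7a*) were read by the probes that the second design calls miR-129-2*, miR-138-1*, miR-181a-1*, miR-218-2* and miR-7a-1*. So 57 star probe sets were measured alike on all 11 arrays.

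The RefSeq table used here, on the rat build GRCr8, holds a mature strand matched by name for 226 of the 245 star names and both strands for 200; 19 had no match. Sequences follow for the names on which the results turn, 5′ to 3′, with the seed (bases 2 to 8) in capitals. First come the strands of miR-129 and miR-652, the star names with the brightest signal on the second design. As background, miR-129* names are the 3p strands of the 2 miR-129 hairpins and miR-652* is a 5p strand.
miR-129-5p: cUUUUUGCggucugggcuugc
miR-129-1-3p: aAGCCCUUaccccaaaaag
miR-129-2-3p: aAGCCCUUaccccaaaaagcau
miR-652-5p: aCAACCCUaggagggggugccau
miR-652-3p: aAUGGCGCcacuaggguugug
The Mir129-1 hairpin gives its 3p strand at chr4:58589759-58589777 on the plus strand, and Mir129-2 gives its own at chr3:100657405-100657426 on the minus strand. The 19 bases of miR-129-1-3p are the first 19 of the 22 bases of miR-129-2-3p, so both share the seed AGCCCUU. The 5p strand is the same in both hairpins.

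The next strands belong to star names detected on more than 5 of the 11 arrays. As background, miR-29c* is a 5p strand, and miR-140*, miR-30a* and miR-136* are 3p strands. For miR-136 and miR-30e the table holds 1 strand each.
miR-29c-5p: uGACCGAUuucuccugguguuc
miR-29c-3p: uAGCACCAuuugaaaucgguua
miR-140-5p: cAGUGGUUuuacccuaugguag
miR-140-3p: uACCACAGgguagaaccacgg
miR-30a-5p: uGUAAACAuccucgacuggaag
miR-30a-3p: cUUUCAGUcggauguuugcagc
miR-30e-5p: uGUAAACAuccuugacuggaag
miR-136-3p: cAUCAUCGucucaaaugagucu
miR-296-5p: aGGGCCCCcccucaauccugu
miR-296-3p: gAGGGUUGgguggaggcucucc
The guides miR-30a-5p and miR-30e-5p share the seed GUAAACA and 21 of 22 bases. No file used here says which strand of miR-296 the asterisk marks, so both are shown without that assignment.

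The last set is shown for names whose star signal stood far below the guide or differed between the array designs. As background, miR-126* is the 5p strand of its hairpin and the miR-7a star names are 3p strands.
miR-126a-5p: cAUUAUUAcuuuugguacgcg
miR-126a-3p: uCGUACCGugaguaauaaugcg
miR-7a-5p: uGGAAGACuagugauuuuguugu
miR-7a-1-3p: aCAACAAAucacagucugccau
miR-7a-2-3p: cAACAAGUcccagucugccaca
Aligned with a shift of 1 base, miR-7a-1-3p and miR-7a-2-3p agree at 18 bases, and they have different seeds.

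Few star names gave a detectable signal in these islets. By the flag of the scanner software, 40 of the 245 star names (16.3%) were detected on at least 1 array, against 205 of the 442 other names (46.4%). Of the 40 names, 15 were on both designs, 2 on the first only and 23 on the second only. Joining names read by the same probes leaves 38. The share was low on every array. On the first design it was 5 to 9 of 58 star names (8.62% to 15.5%), beside 35.3% to 52.4% of the other names. On the second design it was 13 of 240 on Control 635, 24 on Control 652 and 34 on HFD 640, or 5.42%, 10% and 14.2%, beside 29.98%, 37.3% and 42.1% of the other names. The plot of detected names per array shows the star bar below the other bar 11 times out of 11.

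**Figure D1:**
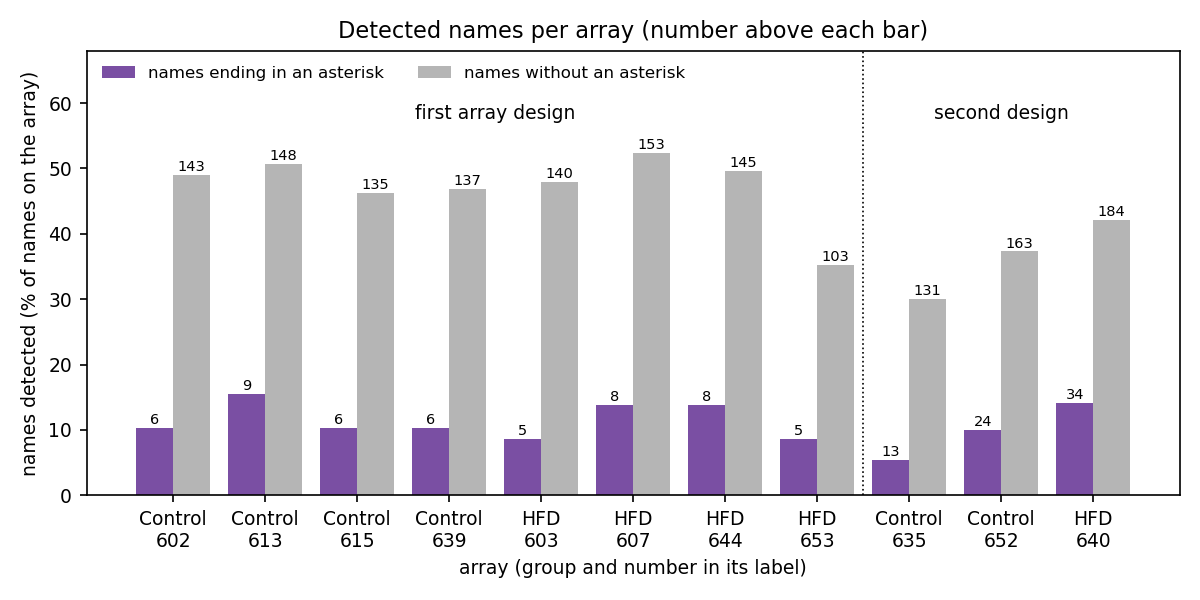
Share of names that the scanner software marked as detected on each array, in % of the names on that array, for names with and without an asterisk; the number above each bar is the count of names. Star names lie between 5.42% and 15.5% and other names between 29.98% and 52.4%.

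Some of these detections rest on a single array. Of the 40 names, 13 were detected on exactly 1 array, 10 of them on HFD 640 and 3 on HFD 653. Without HFD 640 the number of detected star names was 30. The 10 names seen on HFD 640 alone were miR-127*, miR-141*, miR-22*, miR-24-2*, miR-328a*, miR-362*, miR-376a*, miR-421*, miR-423* and miR-770*. The 3 names on HFD 653 were let-7b*, let-7d* and miR-99b*, with scaled signals of 440.4, 374.8 and 263.1. A scaled signal is the background-subtracted signal summed over the probes of a name after the arrays were brought to a common level, in arbitrary units. The other 10 arrays read at most 17.06 for let-7b*, 16.73 for let-7d* and 1.961 for miR-99b*. HFD 653 stands apart from its slide, with an SD of 12.9 among its negative control spots against 2.26 to 3.65 on the other 7 arrays. Its lowest detected scaled signal was 62.5. On the second design the SD was 8.79 on Control 635, 10.4 on Control 652 and 9.33 on HFD 640. These SDs are of signals before scaling between arrays. The part of this spread in the detections on HFD 653 or HFD 640 alone was not tested.

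Islet identity was read from guides of a marker list. The endocrine markers miR-375 and miR-7a were detected on all 11 arrays, at 3717 to 6648 and 6186 to 10634, and the summed level of the 5 listed endocrine markers was 10540 to 14954 in Control and 11088 to 13622 in HFD on the first design. Among these 5, miR-184 was detected on no array. The liver marker miR-122 and the 4 muscle markers were detected on none. Markers of other cells were present: endothelial miR-126 and mesenchymal miR-143 were detected on all 11 arrays, at 349.7 to 742.5 and 229.8 to 521.8. Of the other mesenchymal markers, miR-145 and miR-199a-5p were detected on 1 array each and miR-214 on 5. The red cell marker miR-451 was detected on 3. The 2 measured acinar markers summed to 20.96 to 622.6 in Control and 106.02 to 665.9 in HFD on the first design. Leukocyte markers summed to 33.1 to 40.4 in Control and 33.6 to 356.3 in HFD on the first design. The sum of 356.3 came from HFD 603, where miR-150 alone read 209.0. On the second design the leukocyte markers summed to 77.8 to 146.85 in Control and 145.8 in HFD. In a bulk islet RNA, fewer cells of a type and less RNA per cell cannot be told apart.

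Among the 53 star names on both designs, 15 were detected at least once, 6 on more than 5 arrays and 1, miR-29c*, on all 11. Of the 287 other shared names, 84 were detected on all 11. The 6 were miR-29c* (11 arrays), miR-140* (10), miR-296* (9), miR-30a* (9), miR-136* (8) and miR-30e* (6). The probes called miR-129* on the first design and miR-129-2* on the second were also detected on all 11 arrays, and are not among the 53 because the names differ.

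Lists of related hairpins gave the following counts of star names detected at least once. In the imprinted Dlk1-Dio3 region, a long cluster expressed from the maternal chromosome, 7 of 32 were detected: miR-136* on 8 arrays, miR-337*, miR-411* and miR-434* on 2 each, and miR-127*, miR-376a* and miR-770* on 1 each. Of the guides of these 32, 24 were detected. In the miR-30 family 2 of 5 star names were detected, miR-30a* and miR-30e*. In the miR-23, 24, 27 and 29 clusters 3 of 10 were detected, miR-29c*, miR-29a* and miR-24-2*. In the let-7 family 3 of 9 were detected, of which let-7b* and let-7d* were seen on HFD 653 alone and let-7a-1* on 2 arrays. None of the 12 star names of the miR-17-92 and related clusters was detected, while 5 of the 8 guides on the arrays were. Of 9 star names for which use of both strands is known, 4 were detected: miR-126*, miR-140*, miR-30a* and miR-30e*. Beside these stands the count over all star names, 40 of 245.

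Star signal was next set against guide signal on the same array. The ratio compares fluorescence from different probes, so it is not a ratio of molecules, but the scaling between arrays cancels in it. With normexp background correction, which adds an offset of 50 to every spot, low star signals come closer to the guide by construction: the median log2 ratio of miR-29c* was -3.74 in place of -5.11, that of miR-30a* -1.36 in place of -3.57, that of miR-30e* -1.23 in place of -3.36 and that of miR-136* -0.76 in place of -2.30. Over the 210 pairs, both names were detected at some array in 26, the guide alone in 104, the star alone in 7 and neither in 73. In 25 pairs both were detected on the same array. The median percent of guide signal, taken over the arrays with both, was under 10% in 11 of these 25 pairs, from 10% to 100% in 8 and over 100% in 6. In 16 of the 25 pairs it covers 2 or more arrays, and in the rest it is the value of 1 array. HFD 653 alone gave the values of let-7b* (8.16%), let-7d* (21.5%) and miR-99b* (175%), the last being 1 of the 6 over 100%. The remaining single values came from HFD 640. The middle pair was miR-136*, at 20.3%. The lowest was miR-7a* at 0.0533% and the highest miR-455* at 353%.

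**Figure D2:**
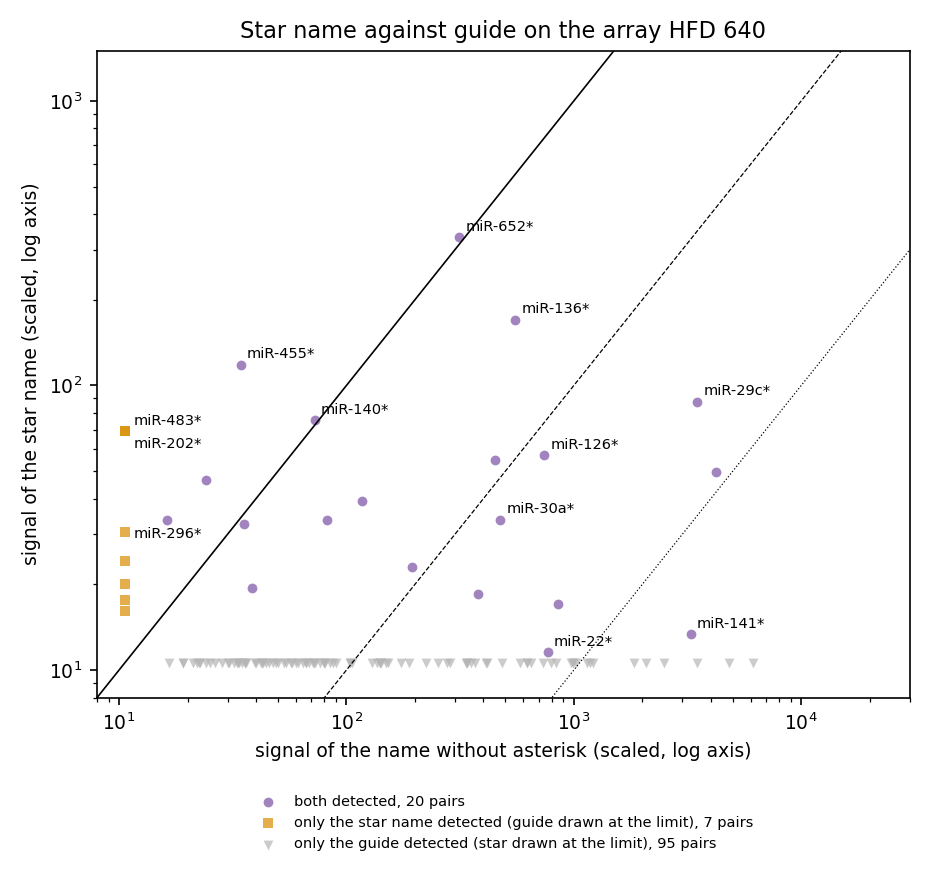
Scaled signal of each star name against its guide on HFD 640, the array with the most detected names, on log axes; solid, dashed and dotted lines mark a star signal of 100%, 10% and 1% of the guide. Both names were detected in 20 pairs, only the star name in 7 and only the guide in 95. The stars of those 95 pairs form a row at 10.6, the limit used for this array, whatever they read. Some read higher, among them miR-23a* at 18.84 and miR-30d* at 18.11. For such stars the row lies below the upper bound. HFD 640 also detected names below this row, down to 7.06.

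Most bright guides had no visible star, though on the second design stars were detected least often where the guide was not detected. On HFD 640, 13 pairs had a guide above a scaled signal of 1000, and the star was detected in 3 of them: miR-141*, miR-29a* and miR-29c*. With a guide from 100 to 1000 it was detected in 10 of 44 pairs, with a detected guide under 100 in 7 of 58, and with no detected guide in 7 of 90. On Control 652 the counts were 2 of 13, 6 of 40, 6 of 50 and 4 of 102. From the brightest guides down, the shares were 23.1%, 22.7%, 12.1% and 7.78% on HFD 640 and 15.4%, 15%, 12% and 3.92% on Control 652. On Control 635 they were 7.69%, 9.52%, 6.25% and 2.54%. The first-design arrays did not share 1 order: Control 602 had 11.1%, 13.3%, 7.69% and 14.3%, and HFD 653 had 30%, 14.3%, 0% and 0%.

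For 72 star names that were never detected, the guide was detected on 3 or more arrays, so the star has an upper bound only. The bound on each array is the higher of the star's own signal and the array's limit. That limit was 10.6 to 22.3 on 10 arrays and 62.5 on HFD 653. It is the higher of the array's lowest detected signal and a floor of 10.6, the 1st percentile of detected values over all arrays. Some arrays detected names below that floor, HFD 640 down to 7.06. Bounds set by the floor depend on the scaling between arrays. On the median array 70 of these stars lay at least 2-fold below the guide, 36 at least 10-fold and 7 at least 100-fold. Since the limit of an array is the same for all stars, the bound mostly grows with guide signal. The 4 highest bounds follow the median guide signals of miR-375, miR-23b, miR-26a and miR-27b, at 6132.5, 4796, 3487 and 2454.5. The order of the bounds is therefore not an order of strand choice. The 7, chosen after their values were seen, were the stars of miR-375, miR-23b, miR-26a, miR-27b, let-7e, let-7i and miR-99a. The star of miR-375, the guide that restrains insulin secretion in beta cells, lay at least 410.8-fold below its guide on the median of the 3 arrays that carry it, with bounds of 298.7-fold to 578-fold. The bound was at least 357-fold for miR-23b* and at least 245-fold for miR-26a*. miR-99a* was measured on 11 arrays and lay at least 103-fold below its guide on the median array, with bounds of 18.4-fold to 123.2-fold across the arrays.

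The pair with the lowest measured ratio, taken on the first design, also belongs to an endocrine guide. miR-7a, a guide enriched in endocrine cells, read 6186 to 8923 on the first design. The star probes that the designs call miR-7a* and miR-7a-1* read 4.188 on Control 613, 3.919 on HFD 607 and 8.833 on HFD 644 where detected, or 0.0533%, 0.0480% and 0.105% of miR-7a. All 3 signals lie below the floor of 10.6 used in the diet fit, and they are sums over 4 star probes against 2 guide probes. On the second design the same probes were detected at 38.89 on Control 652 and 51.3 on HFD 640, and read 35.21 on Control 635, where they were not detected. The 2 detected values were 0.385% and 0.482% of miR-7a, beside 0.410% for miR-141* and its guide on HFD 640. The star of the other hairpin, miR-7a-2*, read 62.28 and 56.84 on the Control arrays and 64.93 on HFD 640, or 0.683%, 0.562% and 0.611% of miR-7a. So the star probes of both hairpins gave signal on the second design, at under 1% of the guide. Whether each set also binds the other strand was not tested.

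miR-29c* was the star name seen throughout. miR-29 guides are known to repress collagen messenger RNAs. On the first design miR-29c* read 71.55, 78.76, 98.05 and 85.09 in Control and 76.35, 84.24, 91.07 and 165.8 in HFD, and the groups overlap, with HFD 653 highest. On the second design it read 80.96 and 74.93 in Control and 87.81 in HFD. Its guide read 2296 to 3488. The star was 2.89% to 3.37% of the guide on 7 arrays of the first design, 6.15% on HFD 653 and 2.24% to 2.63% on the second design. The ratio thus varied little between arrays except on HFD 653.

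miR-30a* and miR-30e* come from guides that share a seed. miR-30a* read 25.98, 24.66, 24.12 and 24.65 in Control and 24.02, 30.3 and 25.82 in HFD 603, 607 and 644, was not detected on HFD 653 or Control 635, and read 31.0 on Control 652 and 33.74 on HFD 640. That was 7.90% to 13.8% of miR-30a on the first design and 7.13% to 7.23% on the second. miR-30e* was at or near the limit on the first design, with detected values of 9.669 on Control 613, 8.831 on HFD 607 and 11.74 on HFD 644, and read 47.86, 48.02 and 54.52 on the second. Its share of miR-30e was 5.56% to 7.84% on those 3 arrays and 12.1% to 12.5% on the second design. The guide differed as well, at 102.7 to 190.3 on the first design and 383.1 to 451.7 on the second.

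miR-140* lay close to its guide. miR-140 is best known from cartilage, and its 3p strand is among the passenger strands known to be abundant. miR-140* read 32.65, 46.0, 45.35 and 51.3 in Control and 41.59, 48.91 and 46.75 in HFD 603, 607 and 644. On HFD 653 neither strand was detected, and on the second design the star read 65.54 and 74.76 in Control and 75.35 in HFD. The share of guide signal was 65.4% to 92.7% on the first design and 89.2% to 114% on the second. These ranges overlap, and the star exceeded the guide on 2 of the 10 arrays.

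miR-136*, from the Dlk1-Dio3 cluster, read 21.87, 20.11 and 23.91 on Control 613, 615 and 639 and 25.41 and 19.68 on HFD 607 and 644. It was not detected on Control 602, HFD 603 or HFD 653. On the second design it read 123.04 and 143.7 in Control and 170.2 in HFD, beside a guide at 90.28 to 124.0 on the first design and 397.6 to 553.4 on the second. The share of the guide was 16.2% to 21.1% on the 5 first-design arrays that detected the star and 30.8% to 33.7% on the second design. Where the star was not detected its upper bound was 11.75% on Control 602, 11.7% on HFD 603 and 55.6% on HFD 653. Apart from that last bound the designs do not overlap, and the probes of both strands are the same on both.

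Other ratios differed further between the array designs, as the plot of ratios by design shows. The design coincides with slide, scan, software version and different samples, which cannot be told apart. miR-126, an endothelial guide, read 349.7 to 613.0 on the first design and 641.8 to 742.5 on the second. Its star was not detected on any of the 8 arrays of the first design, with upper bounds of 1.89% to 14.5% of the guide, the highest on HFD 653, and was 8.23%, 7.42% and 7.65% of the guide on the second. On 7 of the 8 first-design arrays the bound, at most 3.03%, lay below each second-design value. The star has 1 probe and the guide 2. With the mean over probes in place of the sum the median share on the second design corresponds to a log2 ratio of -2.71 in place of -3.71.

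The order of the miR-129 strands differed between the designs. As background, miR-129 is best known from brain. On the first design its guide read 189.3, 222.2, 260.9 and 305.9 in Control and 201.3, 300.8, 269.4 and 358.2 in HFD. The star probes called miR-129-2* on the second design read 75.48, 176.3, 148.4 and 310.0 in Control and 146.6, 287.8, 201.7 and 90.67 in HFD. The star was thus 25.3% to 101% of the guide, with a median of 73.8%, and exceeded it on 1 array, Control 639. On the second design the guide read 105.7 and 76.26 in Control and 89.63 in HFD, below every first-design array, and the star read 347.6, 265.3 and 302.0. The star was then 328.7%, 348% and 336.9% of the guide. The star of the other hairpin, miR-129-1*, was on the second design only and read 391.3, 285.4 and 342.6, or 370%, 374% and 382.3% of the guide. On each of the 3 arrays miR-129-1* read higher than miR-129-2*, by less than the spread between the arrays. Their strands share 19 bases.

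**Figure D3:**
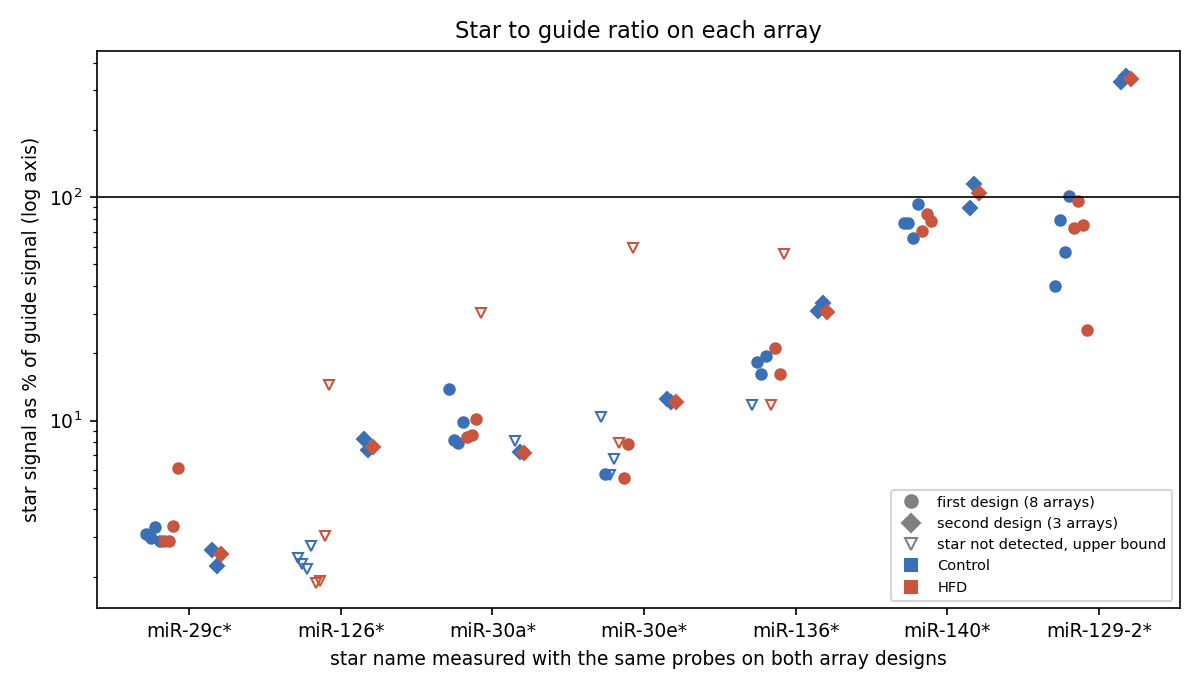
Star signal as % of guide signal on each array (log axis) for 7 star names read by the same probes on both designs; circles are first-design arrays, diamonds second-design arrays and open triangles upper bounds where the star was not detected. miR-29c* stays between 2.24% and 6.15%, while miR-129-2* runs from 25.3% to 101% on the first design and from 328.7% to 348% on the second.

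In 12 pairs the star name gave more signal than the guide on most arrays where either was detected: miR-150*, miR-202*, miR-211*, miR-296*, miR-330*, miR-362*, miR-421*, miR-423*, miR-455*, miR-483*, miR-652* and miR-770*. The count rests in part on HFD 640: miR-362*, miR-421*, miR-423* and miR-770* were detected there alone, at 24.26, 17.59, 16.08 and 20.05, with guides that were never detected. Without HFD 640 the count was 8, of which 7 were among the 12, with miR-652* also lost and miR-411* added. With normexp 6 of the 12 stayed brighter than the guide, and 9 of the 12 did under the higher floor, the 5th percentile of detected values. The normexp offset enters the sum once per probe, so it favours the name with more probes. The guides miR-296, miR-362, miR-421, miR-423 and miR-770 have 4 probes against 2 for their stars. In contrast, miR-455* has 2 against 1 and miR-483* 4 against 2. The normexp count therefore cannot separate strand signal from probe number.

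miR-296* was the one seen most widely. It was detected on 9 arrays and miR-296 on none, although the guide had 4 probes and the star 2. It read 54.39, 43.3, 41.03 and 36.8 in Control on the first design and 63.66, 44.45 and 41.12 on HFD 603, 607 and 644. On the second design it read 18.88 on Control 652 and 30.62 on HFD 640. Set against the limit of each array, the star was at least 347% to 551% of the guide on the first design, and at least 135.6% and 289% on Control 652 and HFD 640. miR-296* was lower on all 3 arrays of the second design than on all 8 of the first.

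miR-652*, miR-455*, miR-150*, miR-211*, miR-483* and miR-202* were on the second design only. miR-652* read 431.2 and 266.2 in Control and 331.6 in HFD, or 154.3%, 98.15% and 105.6% of its guide, so the strands lay close to each other on 2 of the 3 arrays. miR-455* read 135.5, 91.26 and 118.4, or 510%, 353% and 346% of its guide. With the mean over probes in place of the sum (2 star probes and 1 guide probe) the median log2 ratio of miR-455* was 0.82 in place of 1.82, so the star remained the brighter. miR-455 has 1 strand in the RefSeq table and it is not printed, since no file says which name it belongs to.

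miR-150 is best known as a guide of lymphocytes. miR-150* read 52.04 and 35.28 in Control and 46.65 in HFD, or 253% and 193% of the guide on Control 652 and HFD 640, and at least 234% on Control 635. miR-211* read 85.77, 21.73 and 33.8, or 208% of the guide on HFD 640 and at least 385% and 156% on the Control arrays. miR-483*, whose hairpin lies within the Igf2 gene, read 110.8 and 56.7 in Control and 69.14 in HFD, while the guide was not detected on the second design, so the star was at least 498%, 407% and 652% of it. miR-483* has 4 probes and miR-483 has 2, so the sum over probes favours the star. miR-202* was detected at 43.78 on Control 652 and 69.08 on HFD 640, at least 314.5% and 651% of its guide. On Control 635 it read 52.09 without being detected. miR-330* was marked as detected on Control 602 at 29.46 and on Control 613, where its signal was -2.68 and that of its guide -14.1. Both signals there lie below background and have no order, so its place among the 12 rests on Control 602. miR-466b-1*, with no guide of the same name on the arrays, was among the 10 brightest of the 23 detected star names found on the second design only. It read 39.23 on Control 652 and 52.2 on HFD 640, and 75.3 on Control 635 without being detected.

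Between these ends lay the less bright pairs of the second design. miR-31* was 34.7% and 33.5% of miR-31 on Control 652 and HFD 640. miR-337* and miR-411*, both of the Dlk1-Dio3 region, were 33.3% and 40.9%, and 111% and 91.4%, of their guides on the same arrays, and miR-434* was 4.49% and 4.89%. miR-29a* was 0.8293% and 1.18% of a guide at 4253 and 4218. On HFD 640 alone, miR-127* of the same region was 1.99% and miR-376a* 11.8% of the guide. So within 1 imprinted cluster the share ran from 1.99% to 111% among pairs with both strands detected.

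The design compares daughters of HFD fathers with daughters of Control fathers, and no star name passed that test. The limma fit covered 152 names that both designs carry and that at least 5 arrays detected, with the array design as a block and Benjamini-Hochberg adjustment at 0.05. Of the 53 shared star names 6 could be tested, and 239 of the 245 in all had no test. None of the 6 was called, beside a background of 0 of 152 names (0%). At an unadjusted p under 0.05 there was 1 star name of 6, beside 3 of 152 names (1.97%). No star name had groups that did not overlap within both designs, beside 1 of 152 names (0.658%).

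The 6 tested differences, as log2 HFD minus Control with the SE over 11 arrays, ran from -0.31 to 0.53. miR-296* had 0.53 ± 0.23 with a 95% interval of 0.01 to 1.05, an unadjusted p of 0.046 and an adjusted p of 0.987 in limma. That value takes in HFD 653, where miR-296* read 102 without being detected, and it was 0.35 without HFD 653 and -0.0059 with outlier spots kept. miR-29c* had 0.24 ± 0.19, which was 0.06 without HFD 653. miR-140* had -0.31 ± 0.38, and without HFD 653, where it lay at the floor, the difference was 0.09. The other 3 differences were 0.01 ± 0.11 for miR-30a*, 0.07 ± 0.07 for miR-30e* and -0.08 ± 0.29 for miR-136*, each with an adjusted p of 0.987 in limma. On the first design miR-30e* lay at the floor on 4 Control and 3 HFD arrays. Its SE is small because those values were made equal, and is not a measure of precision. The interval of miR-30a*, -0.22 to 0.25, was narrow beside that of miR-140*, -1.15 to 0.54.

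**Figure D4:**
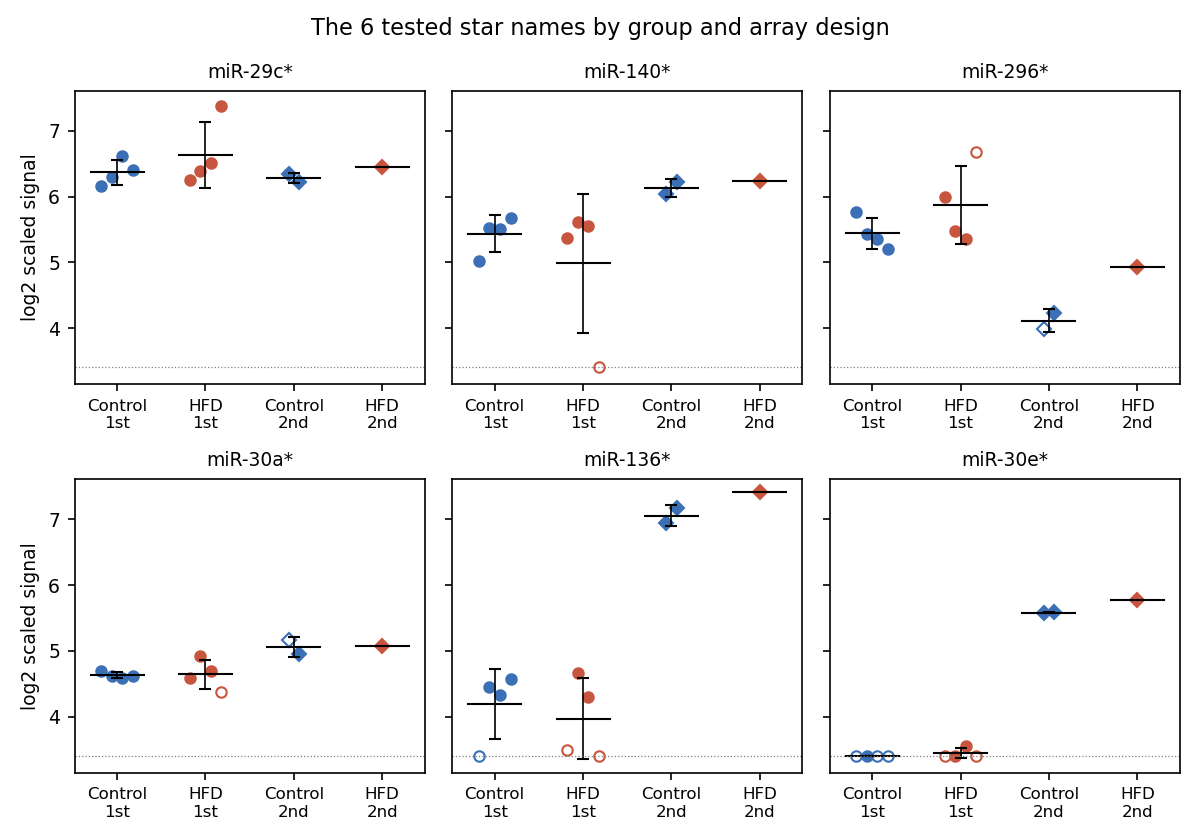
Log2 scaled signal of the 6 tested star names for each array by group, with first-design arrays as circles and second-design arrays as diamonds; filled symbols were detected and open ones not, bars are the mean, whiskers the SD of groups of 2 or 4 arrays, and the dotted line the floor. Control and HFD overlap on the first design for each of the 6 names. Every second-design array lies above every first-design array for miR-136*, miR-30e*, miR-140* and, by little, miR-30a*, and below them for miR-296*.

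The star to guide ratio was compared between the groups where most first-design arrays gave one. miR-129* was 69.4% ± 26.8 of its guide in Control (SD, n = 4) and 67.2% ± 29.8 in HFD (SD, n = 4), and miR-140* was 77.8% ± 11.3 in Control (SD, n = 4) and 77.5% ± 6.83 in HFD (SD, n = 3), differences smaller than the spread between arrays. miR-30a* was 9.93% ± 2.72 in Control (SD, n = 4) and 9.08% ± 0.953 in HFD (SD, n = 3), and miR-29c* 3.08% ± 0.196 (SD, n = 4) and 3.82% ± 1.57 (SD, n = 4), the latter with HFD 653 at 6.15%. These ratios had no test.

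Of the 6 tested star names 4 had a difference above 0 and 2 below, with a median of 0.04, beside 108 of 152 names above 0 and a median of 0.07. Their guides had differences of 0.05 ± 0.09 (miR-29c), -0.13 ± 0.22 (miR-140), 0.08 ± 0.17 (miR-30a), -0.04 ± 0.18 (miR-30e) and 0.10 ± 0.13 (miR-136), and miR-296 was not tested. Among the guides of the brighter star names, miR-150 had the largest difference, 1.72 ± 0.61, with an unadjusted p of 0.018 and an adjusted p of 0.987 in limma. It read 9.484 to 12.55 in Control on the first design and 209.0, 25.1 and 13.41 on HFD 603, 607 and 644, and HFD 653 entered the fit at 71.18 without being detected. Its difference was 1.54 without HFD 653, 1.17 without HFD 603, 0.29 with normexp and 0.54 in the deposited log2 tables. Without scaling between arrays its adjusted p was 0.000616. Joining names by their probes, a choice made after the data were seen, brought miR-129-2* and miR-7a-1* into a fit of 156 names, with 0.06 ± 0.38 and 0.45 ± 0.31 and adjusted p-values of 0.987 in limma.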

How the data were processed

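For the 1-colour Agilent arrays, 100 ng of total RNA was labelled with Cy3, per the labels' protocols. The deposited scanner files hold spot intensities that Agilent Feature Extraction (version 10.5.1.1 on the 8 arrays of the first design, 10.7.3.1 on the 3 of the second) had background-subtracted, per the file headers. The authors also deposited log2 tables for each design; the submitters' processing notes name RMA and Partek, with their roles and versions not given in the sources used here. Setting those tables against the scanner files gave, for nearly all values, the log2 of the software's total signal, with 50 added on the first design and blanks where not detected on the second.

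Intensities of spots without an outlier flag were averaged per probe and summed over the probes of a name. Arrays were brought to a common 75th percentile of the 85 names that all 11 of them detected, then floored at a scaled signal of 10.6 (the 1st percentile of detected values) and put on the log2 scale. limma 3.58.1 in R 4.3.3, tested on simulated data, fitted 152 names with group and array design. In the simulated data 43% of log2 changes of 0.5, 77% of 1 and 97.5% of 2 were recovered. Those data held many changed names, which eases the adjusted threshold, and had independent normal noise and no floor. The recovered shares are therefore not the power of the fit on these arrays. Detection is the scanner software's flag. No spot was saturated, and the number of arrays limits the precision. The named star names were those on both designs detected on more than 5 of 11 arrays, those brighter than the guide on most arrays, the 10 brightest of the detected star names found on the second design only and the 5 smallest p-values, with their guides. The members and lists were chosen with earlier results of these data known. Normexp used the median spot signal, since the files give no mean signal.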

Additional observations from a re-analysis of the deposited data

Results flagged for a closer look

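In 32 groups of 4 first-design arrays (log2 scaled signals of 7 star names and 6 guides and the star to guide log2 ratios of 4 pairs, where all 4 arrays gave a value), 4 groups held an array whose gap to its nearest neighbour was above Dixon's 95% critical value as a share of the group's range. Chance flags about 5% of such groups, or 1.6 of 32. For miR-140* in HFD the share was 0.894 and for its guide miR-140 in HFD 0.961, with HFD 653 lowest for both strands. For miR-30e* in HFD it was 1, because HFD 644 was the one array above the floor. For miR-136 in Control it was 0.893, with Control 602 lowest.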

How the results depend on the processing

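No star name was called in limma under any of the 25 alternatives, including leaving out each array in turn (0 to 0). The 6 star names on more than 5 arrays became 1 when detection on all arrays was asked and 15 when 1 array sufficed, and 5 to 6 when an array was left out. The number detected on at least 1 array was 30 to 40 and the number of pairs with the brighter star 8 to 12 when an array was left out. With normexp 16 pairs had the brighter star, of which 6 were among the 12, and with the floor at the 5th percentile 9. The normexp counts depend on the number of probes per name, since the offset enters once per probe. None of the differences in this paragraph passed the test, and those with another sign than the main one were these log2 values. With normexp they were 0.0022 for miR-140*, 0.063 for miR-136*, 0.025 for miR-140 and 0.041 for miR-30e. In the deposited log2 tables they were 0.12 for miR-140*, 0.084 for miR-140 and 0.094 for miR-30e, and with outlier spots kept -0.0059 for miR-296*. Scaling by the 75th percentile of all shared names shifted the median over all 152 names by -0.21 and gave -0.21 for miR-30a*, -0.17 for miR-29c, -0.14 for miR-30a and -0.12 for miR-136. Median scaling shifted it by -0.15 and gave -0.14, -0.10, -0.072 and -0.051 for the same 4, and quantile normalisation shifted it by -0.13 and gave -0.32 for miR-30a*, -0.089 for miR-30a and -0.16 for miR-136. Without the design block they were -0.045 for miR-30a*, -0.22 for miR-30e*, -0.023 for miR-30a and -0.17 for miR-136. Without scaling between arrays they were 0.11 for miR-136* and 0.033 for miR-30e, with the higher floor 0.065 for miR-136*, and on the first design alone -0.0056 for miR-136. With 1 array left out the differences were -0.25 to 0.072 for miR-136*, -0.45 to 0.086 for miR-140*, -0.054 to 0.075 for miR-30a*, -0.0056 to 0.16 for miR-136, -0.22 to 0.073 for miR-140, -0.0019 to 0.084 for miR-29c, -0.025 to 0.17 for miR-30a and -0.16 to 0.064 for miR-30e. The cause was not tested. No paired analysis was possible because the numbers in the labels are not shared between the groups. On HFD 653 and Control 635 the high detection limit (62.5 and 22.3) bounds what star signal could be seen.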
